A study of Homo sapiens with 3 samples.

Results

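The YBX1 peaks of human chromosome 21 were taken from both deposited peak lists of a ChIP-seq experiment by keeping every peak placed on that chromosome. They numbered 723 of 22874 peaks (3.16%) in replicate 1 and 576 of 17285 peaks (3.33%) in replicate 2. Peaks of both lists that overlapped by at least 1 bp were merged into shared regions, of which 339 of 10895 (3.11%) lay on chromosome 21. The other autosomes held 20823 and 15632 peaks and 9923 shared regions. The members were chosen by where peaks had been called, so the shares and levels below are descriptions and no test was made on them.

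The study mapped where YBX1 sits on chromatin in HEL, an established human erythroleukaemia cell line that carries the JAK2 V617F allele. It held 2 YBX1 immunoprecipitations, made with an antibody against YBX1, and 1 input library of sheared chromatin that served as the background of both lists; all cells were HEL and none received a drug. Whether the replicates are separate cultures is not stated in the labels, and their spread may be technical. After removal of duplicate tags the replicates kept 10010819 and 9926271 tags and the input kept 74780414.

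YBX1, also called YB-1, carries a cold-shock domain, binds single-stranded and double-stranded nucleic acids and takes part in transcription, splicing, mRNA packaging and translation. Chromosome 21 is among the smallest human chromosomes. Its short arm consists largely of repeats and ribosomal RNA genes, and its long arm carries blood regulators such as RUNX1 and ERG and the genes whose extra copy is present in Down syndrome. Tandem repeats are runs of a short unit copied head to tail. Such a run can be read in any frame and on either strand, so AGAT stands here for TCTA, TAGA and their other frames, ATCC for TCCA and TGGA, and ACC for CCA and TGG.

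A few RefSeq sequences show which sequences the annotated genes near prominent regions hold. The mature sequence of miR-155, whose host gene MIR155HG was named for the strongest region outside any annotated repeat, is shown with its seed, bases 2 to 8, in capitals. Both mature arms of miR-5009 are shown likewise, because the deposited annotation names this miRNA gene for a chain of peaks on chromosome 21, whereas RefSeq (GRCh38.p14) places it on chromosome 15.
hsa-miR-155-5p: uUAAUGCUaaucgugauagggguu
hsa-miR-5009-5p: uUGGACUUuuucagauuuggggau
hsa-miR-5009-3p: uCCUAAAUcugaaaguccaaaa
The promoter window of IFNAR1, which encodes a subunit of the type I interferon receptor, is shown because IFNAR1 had the only shared promoter region of the chromosome on a 5-base repeat unit, written GGATG by the authors. This RefSeq window, chr21:33324720-33325019 on the plus strand of GRCh38.p14, runs from 250 bases before to 50 bases after an annotated start, and GGATG is in capitals.
IFNAR1: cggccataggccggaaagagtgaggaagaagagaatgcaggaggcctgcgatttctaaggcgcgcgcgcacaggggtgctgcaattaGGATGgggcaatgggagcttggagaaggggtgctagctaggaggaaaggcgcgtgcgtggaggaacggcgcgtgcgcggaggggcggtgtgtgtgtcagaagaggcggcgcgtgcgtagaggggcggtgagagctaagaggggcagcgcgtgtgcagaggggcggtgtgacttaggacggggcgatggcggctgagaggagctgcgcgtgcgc
The unit occurred 1 time in this window, and GGATG or its complement CATCC was present in 40.8% of all 35116 promoter windows, so the match is common. The peaks are placed on hg19 and the window on GRCh38, so the repeat run under the peak was not located in it.

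Chromosome 21 carried many YBX1 peaks for its length. Up to its last peak it held 15.04 peaks per Mb in replicate 1 and 12.0 in replicate 2, against medians of 6.87 and 5.05 for the other autosomes, which makes it 2.19 and 2.37 times denser. It ranked 2 of 22 in both lists, after chromosome 19 with 17.0 and 13.5 peaks per Mb. Counted from the first to the last peak, the density was 18.7 and 14.9 per Mb and ranked 1 of 22. When peaks within 500 bp of each other were joined to loci, chromosome 21 had 389 and 310 loci, or 8.09 and 6.44 per Mb, against medians of 3.97 and 3.05 for the other autosomes, again rank 1. In replicate 1, 68.5% of chromosome 21 peaks shared a locus with another peak, against 68.5% on the other autosomes. In replicate 2 the share was 70.3% (95% Wilson interval 66.5% to 73.9%), against 63.1% (62.4% to 63.9%). The direction depends on how peaks are selected. Among the stronger 50% of each list by fold enrichment, chromosome 21 had 0.801 and 0.713 times the median density of the other autosomes.

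Along the chromosome most peaks, 671 and 524, lay from 15 Mb on, and the first peaks started at 9481607 and 9460778. The windows below include any gaps in the assembly, so their counts are not densities per base of sequence. In consecutive 5 Mb windows, the full ones numbered 1 to 9 from the short arm end, replicate 1 had 0, 12, 40, 33, 91, 76, 107, 122 and 133 peaks, and the partial last window had 109. Replicate 2 had 0, 18, 34, 16, 58, 66, 84, 82 and 122 peaks in the same windows and 96 in the last. Windows 5 to 9 stood above the 90th percentile of other autosomes' windows (65.2 and 49 peaks) in both replicates, while windows 1 to 4 stood below it. Shared regions numbered 0, 7, 17, 11, 44, 44, 52, 53, 67 and 44 in windows 1 to 10. The fullest, window 9, spans the stretch with DSCAM, PDE9A, PRDM15 and SIK1. Over 557 windows of the other autosomes, 11 in replicate 1 and 8 in replicate 2 held more peaks than it did.

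**Figure D1:**
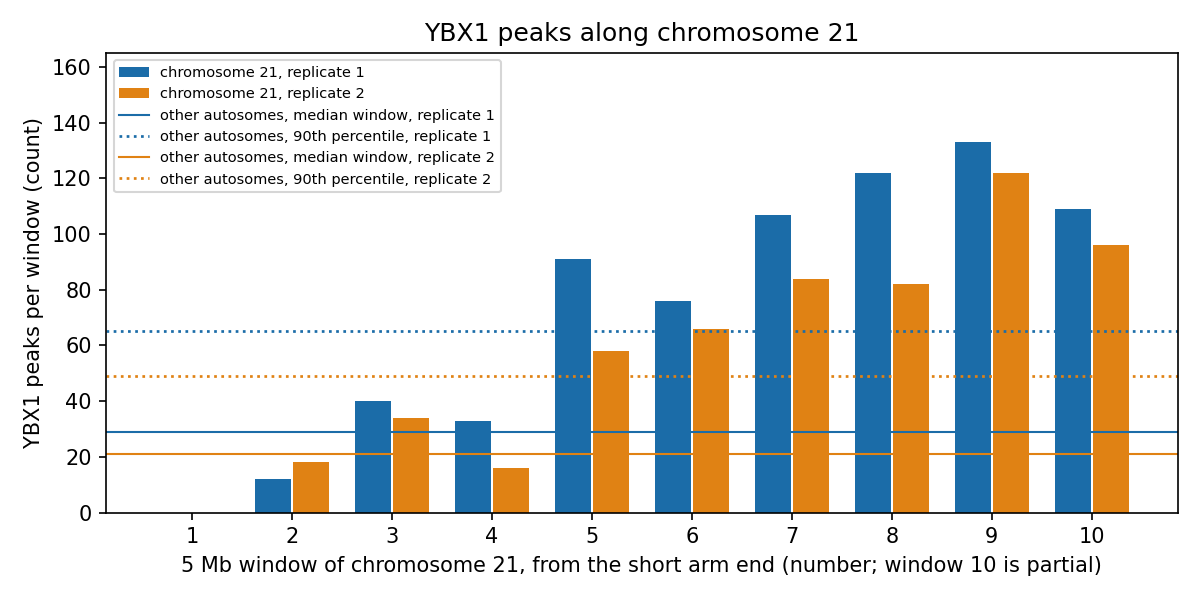
YBX1 peaks (count, vertical axis) in each 5 Mb window of chromosome 21 (horizontal axis, window number from the short arm end), with bars for each replicate, solid lines for the median window of the other autosomes (29 and 21 peaks) and dotted lines for their 90th percentile (65.2 and 49). Windows 5 to 9 rise above the dotted line of their replicate, and the partial last window, with 109 and 96 peaks, does too.

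The composition changed from window to window. AGAT repeats prevailed in window 5, around NCAM2, with 29 and 26 peaks there against 1 and 1 on ATCC repeats. ATCC repeats were the more frequent in window 9, with 26 and 30 peaks against 16 and 20 on AGAT. In the last window, which holds the collagen VI genes and PRMT2, ATCC peaks numbered 14 and 15 and AGAT peaks 3 and 5. AGAT peaks outnumbered ATCC peaks in each of windows 3 to 7 and ATCC peaks outnumbered AGAT peaks in each of windows 8 to 10, in both lists. Peaks in window 2 held no tandem repeat in either list.

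The peaks of chromosome 21 carried many tags but low fold enrichment. Tags are the sequenced reads counted in a peak, and fold enrichment, a value of the authors, divides the ChIP signal at a peak's summit by the background around it. The mean was 28.1 and 24.9 tags per peak, against a median over the other autosomes of 16.7 and 13.9, and both values ranked 1 of 22. The median peak, with 9 tags in both replicates, was near that of the other autosomes, at 9 and 8. The difference sat in the tail: 9.82% (71 peaks) and 7.99% (46 peaks) of chromosome 21 peaks had over 50 tags, against 4.26% and 2.77% on the other autosomes. Summed over its peaks, chromosome 21 had 423 and 298 tags per Mb, against medians of 104 and 76.0.

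Fold enrichment went the other way. Its median was 30.3 and 30.5 on chromosome 21, against 53.9 and 54.4 as the median of the other autosomes' medians, and its maximum was 177 and 160; both were the lowest of the 22 autosomes in both replicates. Peaks with the same number of tags show it directly. Peaks with exactly 5 tags had a median fold of 22.2 in each replicate on chromosome 21, against 40.5 and 40.8 on the other autosomes, and those with over 50 tags had 86.2 and 73.2, against 130 and 118. The best placed chromosome 21 region ranked 221 of all 10895 shared regions.

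Nearly all peaks of chromosome 21 had a local background above the genome-wide level, a larger share than on any other autosome. The caller divides by either a genome-wide level or the nearby input, whichever is larger, so a peak whose nearby input lies at or below the genome-wide level gets a fold equal to a multiple of 13.5 (replicate 1) or 13.6 (replicate 2). On chromosome 21, 5 of 723 peaks (0.692%, 95% Wilson interval 0.296% to 1.61%) and 1 of 576 (0.174%, 0.0307% to 0.977%) lay within 0.006 of such a multiple, against 37.3% and 35.6% on the other autosomes. The next lowest autosome, chromosome 8, had 7.04% and 6.15%. Of these 5 and 1 peaks, 3 and 1 lay below 15 Mb, so 2 peaks of replicate 1 and 0 of replicate 2 from 15 Mb on had a fold over the genome-wide level. The copy number of chromosome 21 in these cells and the input depth along it were not measured here, so the density of peaks, their tags and the number of chromosome copies cannot be told apart. The part of the local background in the density and the folds was not tested.

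**Figure D2:**
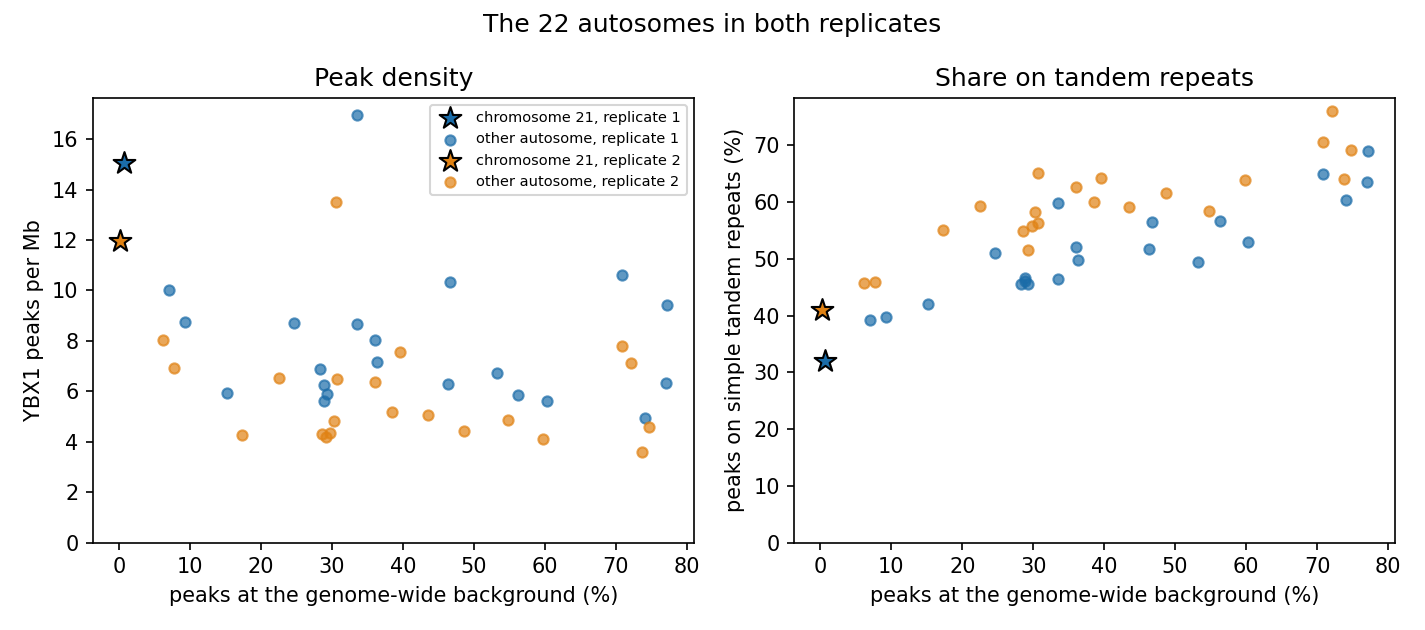
Peaks per Mb (left panel) and the share of peaks on simple tandem repeats in percent (right panel) against the share of peaks at the genome-wide background in percent, with 1 point per autosome and replicate and chromosome 21 as stars. Chromosome 21 sits at the far left of both panels (0.692% and 0.174%), high in density (15.04 and 12.0 per Mb) and lowest in tandem repeats (32.1% and 41.0%).

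Tandem repeats held a smaller share of peaks on chromosome 21 than on any other autosome. They held 232 of 723 peaks (32.1%, 95% Wilson interval 28.8% to 35.6%) in replicate 1 and 236 of 576 (41.0%, 37.0% to 45.0%) in replicate 2, against 50.2% and 58.1% on the other autosomes. Chromosome 8 was next lowest, with 39.3% and 45.8%. The intervals cover counting error only, and neighbouring peaks are not independent. AGAT was the leading unit, with 108 peaks (14.9%) and 112 (19.4%), against 21.9% and 27.1% on the other autosomes. ATCC followed with 73 peaks in each list (10.1% and 12.7%), against 20.4% and 22.03%. ACC had 17 and 16 peaks (2.35% and 2.78%), near the 2.75% and 3.08% elsewhere. The units missing or rare were ATC, with 0 and 0 peaks (95% Wilson upper bounds 0.529% and 0.663%) against 1.13% and 1.23%, and ACCATC, with 4 and 2 peaks against 1.70% and 2.137%. The 6-base unit ACAGAG, by contrast, had 5 and 4 peaks (0.692% and 0.694%), against 0.125% and 0.154%. Shared regions on this unit numbered only 2 of 339 (0.590%, 95% Wilson interval 0.162% to 2.13%), against 13 of 9923 (0.131%).

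Both orientations of each main unit were present. As written on the plus strand, AGAT runs were TCTA in 58 and 63 peaks and TAGA in 50 and 49 peaks. ATCC runs were TCCA in 44 and 50 peaks and TGGA in 29 and 23, whereas on the other autosomes TGGA (10.4% and 11.3% of peaks) was about as frequent as TCCA (9.98% and 10.8%). Peaks with no annotated repeat or island were frequent, with 279 (38.6%) and 185 (32.1%) on chromosome 21, against 26.2% and 21.5%, the highest share of the 22 autosomes in both lists. Of these, 119 (42.7%) and 82 (44.3%) lay in a locus that also held a peak on a tandem repeat.

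Interspersed repeats are the remains of mobile elements. LTR elements, which derive from retroviruses, held 62 (8.58%) and 48 (8.33%) peaks, against 5.21% and 4.16% on the other autosomes, the highest share of the 22. DNA elements held 16 (2.21%) and 11 (1.91%), against 1.19% and 1.04%. LINE elements held 76 (10.5%) and 61 (10.6%), against 11.8% and 9.56%. The LINE type HAL1-2a_MD, which recurs in these lists, accounted for 14 and 16 of them and for 10 shared regions. The strongest of these by tags lay in an intron of ADARB1, an RNA-editing enzyme, with 359 and 236 tags and folds of 78.9 and 54.4. Others lay in introns of TRPM2, PRDM15, DSCAM, PDE9A and DSCR4 and between SCAF4 and HUNK.

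The repeat share was lower in every bin of tags. Among peaks with 5 tags, 9.15% and 11.1% were on tandem repeats on chromosome 21, against 26.0% and 33.8% on the other autosomes. Among peaks with 11 to 20 tags the shares were 41.4% and 50%, against 66.6% and 73.4%. Among peaks with over 50 tags they were 71.8% (60.5% to 81.0%) and 71.7% (57.5% to 82.7%), against 79.3% (76.5% to 81.8%) and 80.8% (76.9% to 84.3%), and there, as at 21 to 50 tags in replicate 2, the 95% Wilson intervals overlapped. Repeats were thus more frequent among peaks with more tags on both sides, and the gap was narrowest at the top.

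**Figure D3:**
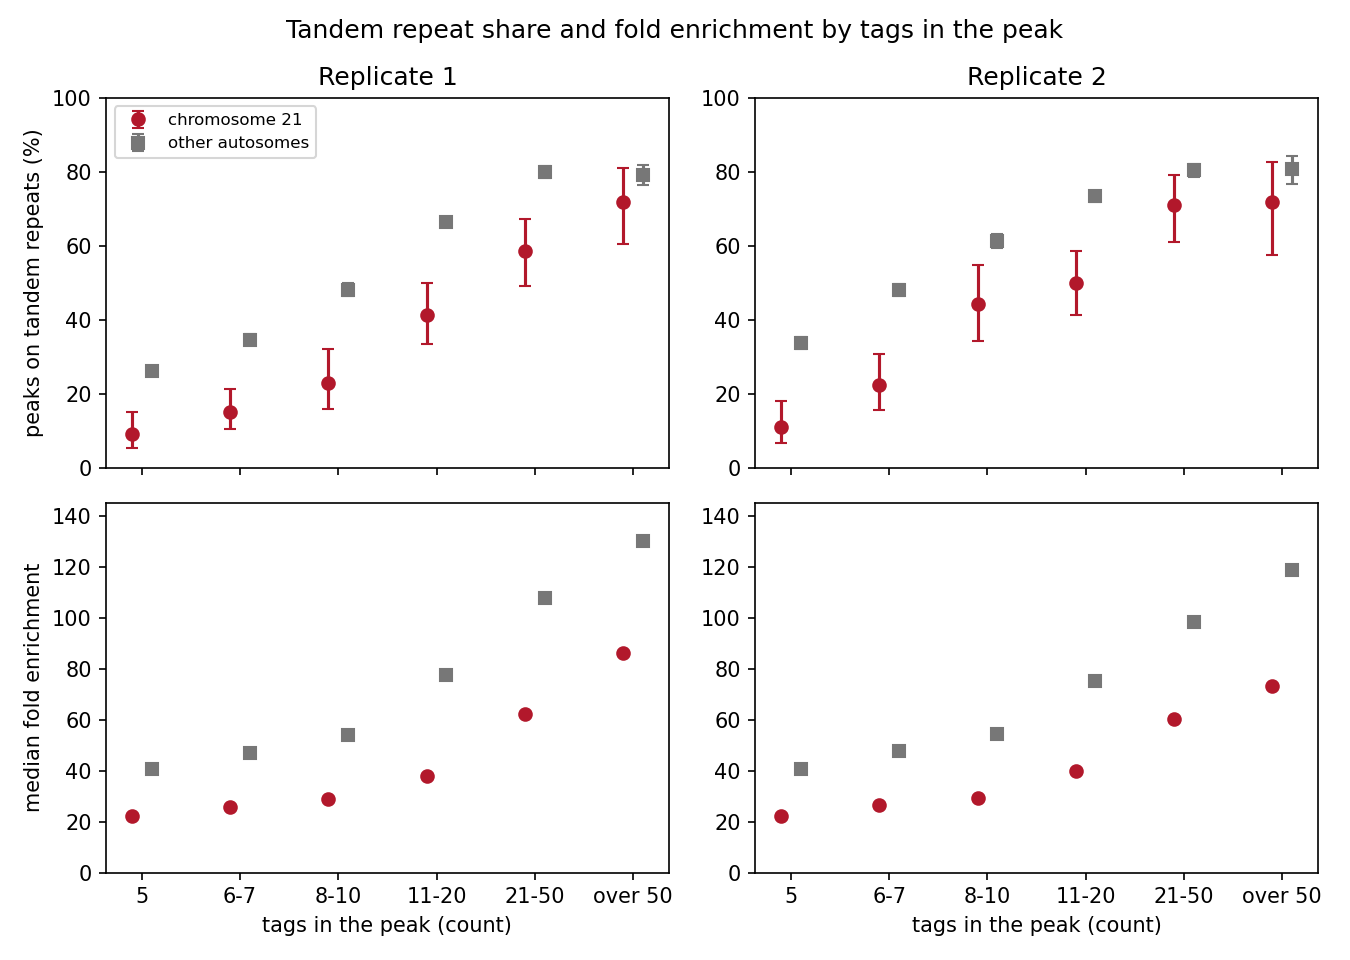
Share of peaks on simple tandem repeats in percent (upper panels, bars are 95% Wilson intervals) and median fold enrichment (lower panels) by the number of tags in the peak, for chromosome 21 (circles) and the other autosomes (squares) in each replicate. Chromosome 21 lies below the other autosomes in every bin, from 9.15% against 26.0% at 5 tags to 71.8% against 79.3% at over 50 tags in replicate 1.

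Across the 22 autosomes, the share of peaks on tandem repeats went with the share at the genome-wide background. Pearson's r was 0.906 in replicate 1 and 0.868 in replicate 2, and Spearman's rho was 0.887 and 0.842. Without chromosome 21 the r was 0.890 and 0.844 over 21 chromosomes. The points share the libraries and the input, and these values describe them with no test. Peak density went with neither as closely: its r with the share at the genome-wide background was -0.30 and -0.36, and without chromosome 21 it was -0.13 and -0.20. The next lowest chromosomes in the share at the genome-wide background were 8 and 1. They had 10.0 and 8.77 peaks per Mb in replicate 1 and 8.03 and 6.92 in replicate 2. These lay between the medians of the other autosomes (6.87 and 5.05) and chromosome 21 (15.04 and 12.0). Whether density depends on the local background was not tested.

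By position, chromosome 21 resembled the other autosomes. In the authors' annotation, 407 (56.3%) and 321 (55.7%) of its peaks were intergenic, against 57.4% and 58.1%. Introns held 271 (37.5%) and 220 (38.2%), against 38.4% and 37.6%. Promoters held 31 (4.29%, 3.04% to 6.02%) and 25 (4.34%, 2.96% to 6.33%), against 3.29% and 3.42%, and both 95% Wilson intervals include those values. The promoter class also takes in peaks labelled as transcript ends. Exons were the exception, with 14 (1.94%, 1.16% to 3.22%) and 10 (1.74%, 0.946% to 3.17%), against 0.917% and 0.883%, rank 2 of 22 in both lists. None of the 14 and 10 exon peaks carried a repeat or island label. The annotation gives each peak a single detailed label, so a peak labelled by its exon shows no repeat there. The same held for 181 of 191 (94.8%) and 126 of 138 (91.3%) exon peaks on the other autosomes. The exon peaks of chromosome 21 were small, with a median of 6 and 6.5 tags, and 4 in each list were found in the other replicate. Peaks in CpG islands, 11 and 5 in all, lay in introns of only 2 genes, PCBP3 (6 and 4 peaks) and COL6A1 (5 and 1), a collagen VI chain.

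Most regions with many tags recurred in the other replicate. Of chromosome 21 peaks, 404 of 723 (55.9%, 52.2% to 59.5%) in replicate 1 and 440 of 576 (76.4%, 72.8% to 79.7%) in replicate 2 overlapped a peak of the other list. Over the whole lists, 54% of replicate 1 peaks and 77.6% of replicate 2 peaks did so, and the shares of chromosome 21 are near these. One input served both lists. Shared peaks had medians of 17 and 12 tags, against 6 and 5 for those in 1 list only. Recurrence went with tags: peaks with 5 tags were shared in 16.2% and 38.5% of cases, and those with 21 to 50 tags in 98.2% and 96.8%.

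Peaks on AGAT and ATCC repeats recurred more often than those with no repeat or island, and the intervals of both units overlapped in both lists. AGAT peaks were shared in 84.3% (76.2% to 89.9%) and 95.5% (90.0% to 98.1%) of cases, close to the 84.6% and 95.6% on the other autosomes. ATCC peaks were shared in 79.5% (68.8% to 87.1%) and 97.3% (90.5% to 99.2%), against 62.8% (61.4% to 64.3%) and 89.9% (88.8% to 90.9%) on the other autosomes. They also had more tags, with medians of 18 and 11 on chromosome 21, against 10 and 9. HAL1-2a_MD peaks were shared in 13 of 14 and 16 of 16 cases. Where no repeat or island was annotated, peaks were shared in 41.9% and 63.8%, against 34.8% and 57.3%. Of the 339 shared regions, 167 (49.3%, 44.0% to 54.6%) lay on tandem repeats, against 68.2% (67.3% to 69.1%) of the 9923 on the other autosomes: 86 were on AGAT, 48 on ATCC and 14 on ACC.

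Fold enrichment ordered the shared regions alike in both replicates, but was mostly lower in replicate 2. Over the 339 regions, which share the input, Pearson's r of log2 fold was 0.88 and Spearman's rho 0.85. On the other autosomes r was 0.76 and rho 0.71. The median fold of the chromosome 21 regions was 46.2 in replicate 1 and 38.4 in replicate 2. Replicate 2 had the higher fold in 109 of 339 (32.2%), against 38.5% on the other autosomes. Regions on tandem repeats had medians of 62.0 and 50.9, and those outside any repeat or island 33.2 and 28.9.

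**Figure D4:**
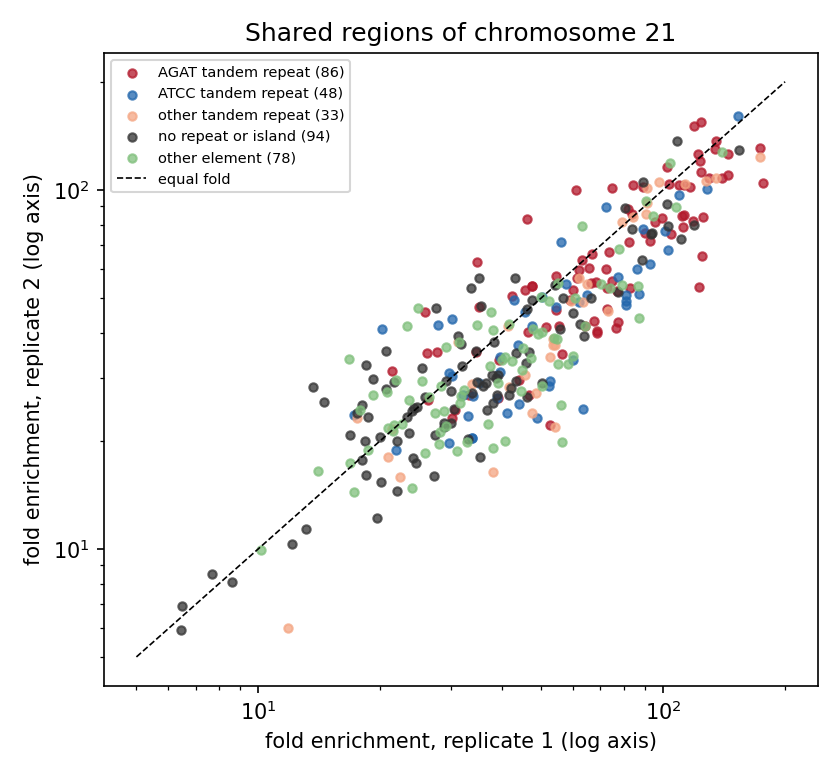
Fold enrichment in replicate 2 against replicate 1 for the 339 shared regions of chromosome 21, both on log axes, with colours for the annotated repeat and a dashed line of equal fold. AGAT regions (86) fill the upper right, and regions outside any repeat or island (94) extend to the lowest folds, below 10.

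The strongest shared regions were mostly AGAT repeats away from promoters. Regions were ranked by the lower of both folds, tags are summed over a region's peaks, and positions are hg19. Of the first 15, 13 lay on tandem repeats, 10 of them AGAT, and 10 were intergenic, 4 intronic and 1 at a promoter. That promoter region ranked first: it lay at chr21:46760050-46760674 on a TCCA run beside LINC00316, a long non-coding RNA gene, with folds of 153 and 160 and 242 and 194 tags. The second, at chr21:44048385-44050033 on a TAGA run, was named for PDE9A, a cGMP phosphodiesterase, and SLC37A1, a sugar-phosphate transporter, with folds of 135 and 137 and 857 and 629 tags. The region with most tags, 1197 and 944, ranked fifteenth, at chr21:44755743-44757610 on a CCA run between LINC00322 and SIK1, a kinase of the AMPK family, with folds of 135 and 108.

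Only 2 of the 15 lay off tandem repeats. The region at chr21:26860117-26860420 held no annotated repeat and was named for MIR155HG and MIR155, the source of the oncogenic miR-155 printed above, among other genes. It had 112 and 107 tags and folds of 154 and 129. The other lay in an intron of EVA1C at chr21:33848119-33848233, on the old LINE element L1ME4a, with 39 and 32 tags and folds of 140 and 128. The other intronic regions were on TCTA runs in LOC101927797 (28 and 27 tags, folds 173 and 131), in PCP4, a calmodulin-binding peptide of neurons (89 and 88 tags, folds 122 and 126), and in the gene model called MIR5009 (39 and 28 tags, folds 123 and 120).

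The remaining strong intergenic regions were named for genes of different kinds. A TCTA run near SLC5A3, a myo-inositol transporter, and MRPS6, a mitochondrial ribosomal protein, had 67 and 48 tags and folds of 134 and 130. One near NRIP1, a corepressor of nuclear receptors, had 21 and 26 tags and folds of 124 and 155, and is 1 of 5 among the 15 with the higher fold in replicate 2. A CACCAT run near LIPI, a lipase, had 207 and 147 tags and folds of 173 and 123. Both strong regions at LINC00314 were AGAT runs, with 41 and 35 tags and with 255 and 171 tags. A region between IGSF5, a junction protein, and PCP4 had 185 and 146 tags and folds of 119 and 151, and a neighbour at B3GALT5, a galactosyltransferase, had 325 and 243 tags and folds of 124 and 112.

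**Figure D5:**
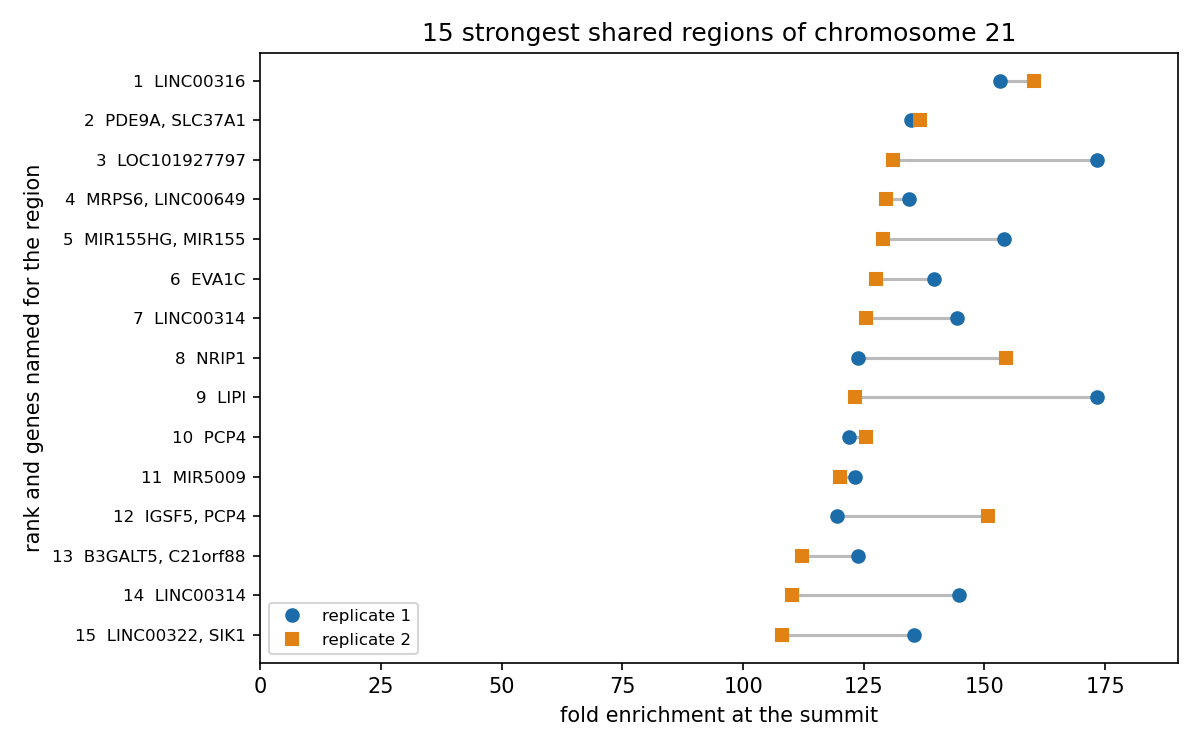
Fold enrichment at the summit (horizontal axis) in each replicate for the 15 strongest shared regions of chromosome 21, from the first at the top to the fifteenth, labelled by rank and up to 2 of the genes named. Folds run from 108 to 173, and replicate 1 is the higher in 10 of the 15.

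Shared regions also came in groups. Joined over gaps of up to 500 bp, the 339 regions formed 215 groups, of which 128 held 1 region and 87 held more. The largest held 6 regions each. One, between SCAF4, a regulator of transcript ends, and HUNK, a kinase, spanned 2024 bp at chr21:33156244-33158267 over CCA runs and a HAL1-2a_MD element, with 443 and 345 tags. The other spanned 1423 bp at chr21:47467374-47468796 between COL6A1 and COL6A2 at an L1ME1 element, with 105 and 116 tags and no fold above 22.4 in both replicates. A group of 4 lay at chr21:45602851-45604627 near ICOSLG, a T cell costimulatory ligand, and DNMT3L, a cofactor of DNA methylation, with 361 and 235 tags.

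In all, 266 gene symbols were named for chromosome 21 peaks, 199 of them for a shared region, and 60 had a shared region in the promoter, an exon or an intron. Genes with at least 4 such regions numbered 11. Among them DSCAM, an adhesion molecule of neurons with very long introns, had 8, of which the strongest held 34 and 31 tags with folds of 72.3 and 89.3. TIAM1, an activator of the GTPase RAC, had 7, led by a region without a repeat (30 and 24 tags, folds 83.7 and 77.9). SH3BGR had 6, all on tandem repeats. PDE9A, DSCR4, NCAM2 (a neural adhesion molecule) and PRDM15 (a zinc-finger regulator) had 5 each, and ERG, PCBP3 and TRPM2 had 4 each. These counts were not adjusted for gene length.

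The gene model with most shared regions inside, 10, was MIR5009; HUNK and PDE9A were each named for 12 when intergenic regions are counted. Its 15 and 16 peaks were all classed as intronic and spread over 410 kb and 394 kb, within chr21:28678021-29087526. A miRNA precursor is far shorter than that, and RefSeq places MIR5009 on chromosome 15, so its name stands here only for that stretch of chromosome 21. BAGE5 was likewise named on chromosome 21 and is placed on chromosome 13 by RefSeq. It was named together with the near-identical BAGE, BAGE2, BAGE3 and BAGE4 for 14 peaks in each list, and which copy gave the tags was not tested.

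In the authors' promoter class, 12 shared regions lay beside 8 genes. This class also takes in transcript ends: a short-arm peak with 247 tags in replicate 2, named for MIR3648-1 and MIR3687-1, carries such a label. After LINC00316, the strongest was that of CLDN14, a tight junction protein, on a TGGA run at chr21:37854340-37854990, with 124 and 92 tags and folds of 109 and 96.6. KCNE1, a potassium channel subunit, had one on a TCCA run at chr21:35885825-35886007 with 37 and 29 tags and folds of 101 and 76.6. DSCAM-IT1 had one on a TCTA run with 25 and 38 tags and folds of 74.6 and 101. IFNAR1 had its GGATG run at chr21:34695862-34696377, with 178 and 96 tags and folds of 59.3 and 48.9. PCBP3, an RNA-binding protein, had one on a TAGA run with 21 and 14 tags and folds of 64.0 and 41.9. In all, 6 of the 12 shared promoter regions lay on a tandem repeat. Over all promoter peaks of chromosome 21 the share was 7 of 31 (22.6%, 95% Wilson interval 11.4% to 39.8%) and 7 of 25 (28.0%, 14.3% to 47.6%), against 35.6% and 42.5% on the other autosomes. The remaining 2 genes, MIR3648-1 and MIR3687-1, were named together for 3 regions on the short arm, of which the 2 largest held 224 and 243 tags and 229 and 247 tags, with folds between 6.49 and 8.61. They combine many tags with low folds, and the RefSeq tables list a further copy, MIR3648-2, so the copy behind the tags cannot be told.

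RefSeq promoter windows of the same genes rarely hold such runs. Of the 8 genes, 4 matched the RefSeq table (GRCh38.p14) with 10 windows of 250 bases before to 50 after a start, and 0 of 10 held 3 copies in a row of AGAT, ATCC or ACC in any frame or on either strand. Over all 35116 windows, 0.0142% held 3 copies of AGAT, 0.0513% of ATCC and 1.29% of ACC, and among the 488 windows of chromosome 21 the numbers were 0, 1 and 11. The absence of a run says only that these letters are not in these windows.

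In exons, 4 shared regions were found. Both regions of PRMT2, an arginine methyltransferase, lay in its 3′ UTR, with 15 and 14 tags (folds 33.5 and 53.1) at chr21:48084744-48084830 and with 6 and 9 tags just before it. MCM3AP, which acts in mRNA export and DNA replication, had one with 6 and 6 tags, and DSCR9, a long non-coding RNA gene, had one with 6 and 5 tags. Apart from the larger PRMT2 region, these held from 5 to 9 tags, near the 5-tag minimum of the lists.

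Of 100 chromosome 21 genes grouped by function into 11 lists, 92 were named for a peak, 71 for a shared region, and 32 had a shared region inside. Of all 266 symbols named on the chromosome, 199 had a shared region and 60 had one inside, and the counts of single lists below are descriptions beside these. The 266 were all named for a peak, whereas the 100 include genes that no peak named, so the bases differ. For intergenic peaks the authors name neighbouring genes, so a name does not place the peak in the gene. Among 9 haematopoietic and ETS transcription factors, 8 were named, 7 had a shared region and 3 had one inside. RUNX1, a master regulator of blood formation, had 3 inside, the strongest on a TCCA run at chr21:36343763-36343856 with 25 and 23 tags and folds of 89.4 and 77.8. ERG, an ETS factor of blood stem cells and megakaryocytes, had 4 inside, all on tandem repeats, and shared with ETS2 an intergenic TAGA run with 27 and 23 tags and folds of 83.7 and 85.9. PRDM15 had the largest, an intronic CCA run at chr21:43226085-43226832 with 306 and 208 tags and folds of 128 and 106. GABPA was not named for any peak.

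Of 9 interferon and cytokine receptors and targets, all were named, 5 had a shared region and 2 had one inside. Besides the promoter of IFNAR1, the partner subunit IFNAR2 had an intronic region on an Alu element with 20 and 20 tags and folds of 70.4 and 54.6. IFNGR2, IL10RB, MX1 and UBASH3A had 0 shared regions. Of 9 kinases, phosphatase inhibitors and signalling genes, 8 had a shared region and 3 one inside. HUNK was named for 12 shared regions with none inside, and DYRK1A, a kinase studied in Down syndrome, for 3 intergenic ones led by a TCCA run with 40 and 27 tags. RCAN1, a calcineurin inhibitor, had 1 (24 and 14 tags), and SYNJ1 had 0.

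Of 11 ion channels and transporters, 10 had a shared region and 6 had one inside. TRPM2, a calcium-permeable channel, had an intronic TAGA region at chr21:45801054-45802467 of 366 and 294 tags and folds of 112 and 78.9. KCNJ15, a potassium channel, had an intronic TGGA region with 249 and 171 tags, and GRIK1, a glutamate receptor, one on an L2a element with 76 and 53 tags and folds of 108 and 89.4. KCNE2 had 0. Of 8 neural adhesion and neurodegeneration genes, 6 had a shared region and 4 one inside. APP, the amyloid precursor, had 1 inside of its 2, led by an intergenic one with 10 and 7 tags, while SOD1 was not named for any peak. NCAM2 was led by a TAGA run with 34 and 29 tags and folds of 113 and 85.3.

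Of 9 tight junction and extracellular matrix genes, 9 had a shared region and 5 had one inside, beside 71 and 32 of the 100 listed genes. COL6A1 and COL6A2 were named for 8 and 10 shared regions, led by an intergenic TGG run at chr21:47510788-47511476 with 306 and 233 tags and folds of 90.7 and 85.4. CLDN8 and CLDN17 share an intergenic TCTA run with 138 and 90 tags. Of 8 proteases, trefoil factors and secreted proteins, 4 had a shared region and 2 one inside, with TMPRSS15, the intestinal enteropeptidase, at 3 inside and TFF1, TFF2, TFF3 and TMPRSS3 at 0. Of 3 neural transcription factors, SIM2 had 3 intergenic shared regions, and OLIG1 and OLIG2 had 0.

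Of 11 RNA binding, splicing and editing genes, 9 were named, 7 had a shared region and 3 had one inside. Besides ADARB1 and PCBP3, RRP1B, a nucleolar protein, had 2 inside, led by one without a repeat (29 and 20 tags, folds 88.8 and 64.0). U2AF1, the splicing factor that reads the 3′ splice site, was named for 3 intergenic regions, the strongest a TCCA run with 17 and 8 tags and folds of 52.5 and 29.4. RRP1 and HSF2BP had 0, and SON, another splicing factor, and RBM11 were not named. Of 10 chromatin and DNA replication genes, 6 had a shared region and 2 one inside, which are the exonic ones of PRMT2 and MCM3AP. HMGN1, a nucleosome-binding protein, MORC3 and CHAF1B had 0, and DONSON was not named.

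Of 13 metabolic genes, 8 had a shared region and 2 one inside, AGPAT3 (8 and 5 tags) and HLCS. PFKL, a phosphofructokinase, was named for 2 intergenic regions shared with AIRE, led by a TGGA run with 73 and 53 tags. ATP5O, a subunit of ATP synthase, was named for 2, led by a TCTA run with 90 and 68 tags and folds of 105 and 75.3. CBR1 and PDXK had 0, and ATP5J, CBR3 and GART were not named for any peak. The lists differ in gene length and number of neighbours, and a list's count was not compared with that of other genes.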

How the data were processed

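Peaks were called with MACS 1.4.2 for each YBX1 ChIP replicate against the same input, per the file headers (p-value cutoff 1e-05, d 20 bp, tag size 36 bp). Reads were handled with Trimmomatic 0.36, bcl2fastq 02.14.01.07 and Bowtie2 on hg19, per the submitters' processing notes. Each list gives the count of tags per peak, per the file headers. The score deposited for each peak is 10 times −log10 of its p-value, a unit inferred from its range because the column lost its name. The fold, a ratio computed by the authors, sets the ChIP signal at a summit against its surroundings. The false discovery rate deposited as a percent was 0 for all peaks. The deposited widths, summits and positions are in bp. The authors filtered and annotated the lists by rules not given in the sources used here, and MACS folds rest on a d shorter than a tag.

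Positions, repeats and genes are the authors' annotation. Each peak has a single detailed label, so a peak labelled by a part of a gene counts as outside repeats and islands. Lengths of chromosomes were taken to the last peak, since no hg19 genome was used. Peaks overlapping by at least 1 bp were shared. Each fold of a shared region comes from the strongest peak of that replicate. Its position and repeat in the counts are those of the strongest peak of replicate 1, and the repeat can differ in replicate 2. Shares carry 95% Wilson intervals. Of 266 symbols, 234 matched RefSeq names and 17 older names. The members and gene lists were chosen with earlier results of these data known. Genes named were those of the 15 strongest shared regions, those with at least 4 shared regions inside, those of shared promoter or exon regions, and the listed genes. The overlap step was checked on simulated lists. Python 3.11.15, pandas 2.3.3 and scipy 1.17.1 were used. Alternatives were stricter scores, folds and tags, other lengths and overlaps, 1 replicate left out, merged regions and, chosen after seeing the data, joined loci and the long arm from 15 Mb on.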

Additional observations from a re-analysis of the deposited data

How the results depend on the processing

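The values used as base were means of both replicates, with SD, n = 2 each. Density was 2.28 ± 0.13 times the median of the other autosomes. Tandem repeats held 36.5% ± 6.28 of peaks, and 56.0% ± 0.399 were intergenic. The median was 9 tags, and shared regions numbered 339. The base for peaks shared was 66.1%, the mean of 55.9% and 76.4%. These set the same overlap against lists of 723 and 576 peaks, so their SD of 14.5 is no spread between replicates. Keeping the stronger 50% of each list by fold turned the density ratio to 0.757 and gave 77.6% on tandem repeats, 63.8% intergenic, a median of 31.75 tags and 93 shared regions; folds were lowest on chromosome 21, so this selection keeps few of its peaks. A score of at least 100 gave a ratio of 1.95, 81.1% shared, 58.1% on tandem repeats, 59.4% intergenic, 22 tags and 195 regions. At least 10 tags gave a ratio of 2.47, 54.8% on tandem repeats, 58.9% intergenic, 20.5 tags and 205 regions. Under these filters the shares were computed for chromosome 21 only. How they compare with the other autosomes there was not tested. The ratio was 2.70 over first to last peak, 3.04 from 15 Mb on and 2.07 for joined loci. Intergenic peaks were 53.5% from 15 Mb on. Shared regions as the unit gave 49.3% on tandem repeats and 60.5% intergenic. For these the cause was not tested. Leaving out 1 replicate in turn gave ratios of 2.19 to 2.37, 32.1% to 41.0% on tandem repeats and 55.7% to 56.3% intergenic, with 9 tags each time. The share of peaks found in the other replicate needs both lists, so it cannot be checked in this way. No paired analysis was possible because the series has 1 group of ChIP samples and 1 input. Ungapped chromosome lengths were not run, since no genome of the build was used. With 2 replicates, the value of either alone lies within the SD by construction.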
